A study of Mus musculus with 11 samples.

Results

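The effect of losing Atxn7l3 was compared between mouse embryonic stem cells (mESCs) and mouse embryonic fibroblasts (MEFs) as a difference of differences. For each gene, the change from WT to Atxn7l3-/- in mESCs was subtracted from the same change in MEFs, so that a positive value means a more positive effect in MEFs. All 11 libraries of the series entered the comparison, namely 2 WT and 3 Atxn7l3-/- mESC libraries and 3 WT and 3 Atxn7l3-/- MEF libraries, all of strain DBA/2 x C57BL/6. Genes were joined by Ensembl identifier, which left 26398 genes listed in both deposited tables, and 19326 of them had enough reads to be tested. The mESC lines came from individual blastocysts. They were grown first with and then without feeders in LIF, 15% FCS and the inhibitors PD0325901 (1 uM) and CH99021 (3 uM). The MEFs came from E10.5 embryos freed of head and gastrointestinal tract and were grown in 10% FCS. The study describes the mutant MEF cultures as mixtures of round and elongated cells and calls them MEF-like. Medium, developmental stage and cell type differ together between the 2 systems and cannot be told apart.

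ATXN7L3 is the adaptor that activates the deubiquitylases (DUBs) USP22, USP27X and USP51, which remove the single ubiquitin of histone H2B (H2Bub1). USP22 works within SAGA, a large co-activator complex. The ubiquitin is added by the RNF20/RNF40 ligase with the PAF elongation complex while RNA polymerase II transcribes a gene, so the mark lies over transcribed gene bodies. mESCs are the cultured counterpart of the early epiblast, whereas MEFs are mesenchymal cells that produce collagen.

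Levels are given as CPM (a gene's read count relative to the total of its library, after TMM scaling) for each library in the order of its number. CPM compares 1 gene between libraries and not different genes with each other. Effects are log2 fold changes with their standard error (SE), and every adjusted p comes from the quasi-likelihood test of edgeR, adjusted by the Benjamini-Hochberg method over 19326 genes. A gene was called when the adjusted p of the difference between the effects was 0.05 or less, the difference was at least 1 on the log2 scale, and its median deposited level exceeded 10 normalized reads per kb in at least 1 of the cell types. A gene above that level in both cell types is termed expressed in both.

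The libraries held 34515342 to 49602605 counts. Markers fitted the labelled cell types: of 6 stem cell markers, the 4 listed in both tables summed to between 2249 and 2855 CPM in the 5 mESC libraries and to at most 49.5 CPM in the MEFs. The 7 fibroblast markers summed to between 7462 and 41998 CPM in the MEFs, mostly from Col1a1, Col1a2 and Col3a1. Single markers fitted less well in the mutant MEFs. Pdgfrb measured 210, 480 and 355 CPM in WT and 27.3, 2.05 and 278 CPM in mutant MEFs. In mutant MEF library 2 it was below its mESC levels of 4.29 to 8.15 CPM. Prrx1 measured 466, 573 and 485 CPM in WT and 27.9, 6.17 and 341 CPM in mutant MEFs. Neither MEF effect passed (edgeR adjusted p = 0.274 for Pdgfrb and 0.204 for Prrx1). In mESCs the same fibroblast sum was 21.8 and 96.3 CPM in the WT libraries and 265 to 389 CPM in the Atxn7l3-/- libraries. Y-linked genes summed to under 10 CPM in 2 of the 3 Atxn7l3-/- mESC libraries (numbers 1 and 2) and in 1 of the 3 WT MEF libraries (number 3), and the other 8 libraries expressed them. Sex therefore overlaps with genotype in both cell types.

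The labels were first checked on Atxn7l3 itself (ENSMUSG00000059995, chromosome 11, 102289300 to 102296631 in mm10). In mESCs it fell from 197 and 203 CPM in WT to 3.34, 1.61 and 0.833 CPM. In MEFs it measured 86.6, 117 and 104 CPM in WT and 56.5, 55.5 and 73.3 CPM in the mutant libraries. The mutant libraries were below WT in both cell types without overlap, but the fall was 104-fold in mESCs (adjusted p = 0.000639 by edgeR) and 1.66-fold in MEFs (log2 effect -0.73, SE 0.37, adjusted p = 0.184 by edgeR). The difference between the effects, 5.97 on the log2 scale (SE 0.58), passed the test (edgeR adjusted p = 0.000664). Counts per gene do not show which exons the remaining MEF reads cover, so these 3 libraries are called KO-labelled MEFs. The study genotyped the embryos from their yolk sacs. It also reports undetectable ATXN7L3 protein and strongly raised H2Bub1 in both its Atxn7l3-/- mESCs and its Atxn7l3-/- MEFs. Those genotyping and protein data were not analysed here. Of the other 8 DUB module genes tested, none was called, with adjusted p between 0.0724 for Atxn7 and 0.635 for Atxn7l2 by edgeR.

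A difference between the effects was called for 2090 genes, 10.8% of those tested. It was higher in MEFs for 1116 genes (5.77%) and lower for 974 (5.04%), and 1697 of the 2090 were expressed in both cell types. The MEF effect alone passed its own test for 1140 of them, the mESC effect alone for 195, both for 36 and neither for 719. Not 1 of the called genes passed in both cell types in the same direction. The call leaves out genes that changed alike in both, so this is no measure of shared effects. The point estimates had opposite signs for 90.8% of the called genes, against 53.4% of all genes tested, a share that selection by the difference itself raises. On its own, the MEF effect was called for 2294 genes (11.9%), 5.37% upwards and 6.5% downwards, and the mESC effect for 316 (1.64%), 0.699% upwards and 0.937% downwards, and the median SE of the effect was 0.466 in MEFs and 0.512 in mESCs. The genes higher in MEFs had a median GC content of 46.4% and the genes lower in MEFs one of 55.6%, against 50.01% over all genes. With a correction for GC content the counts were 791 and 652, and 1183 of the 2090 genes were called.

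**Figure D1:**
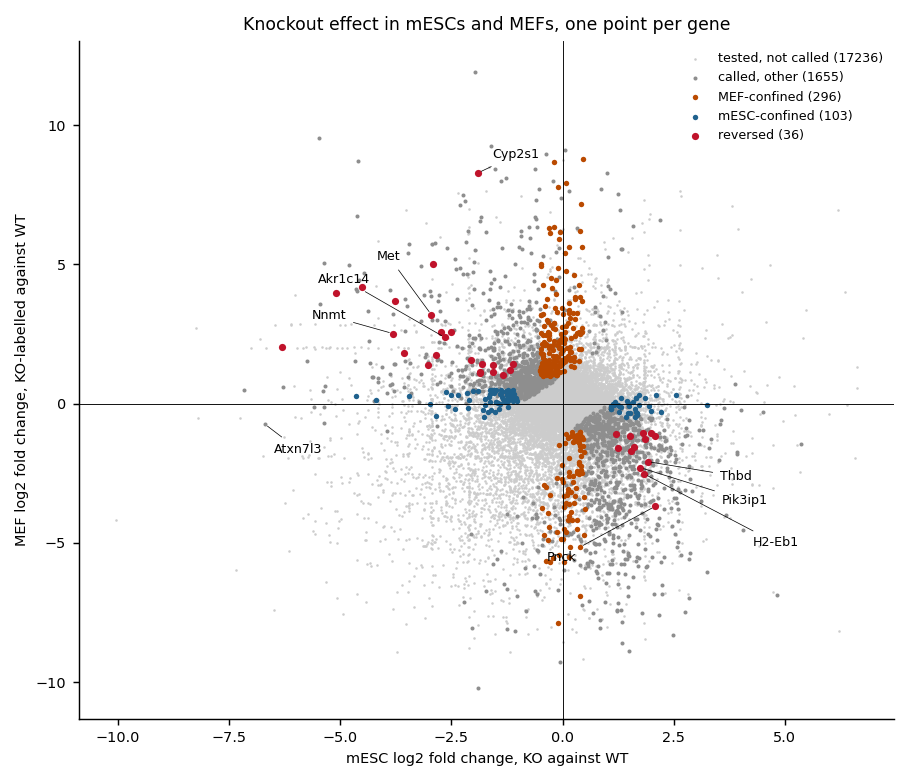
Log2 fold change of Atxn7l3-/- against WT in mESCs (horizontal axis) and of KO-labelled against WT in MEFs (vertical axis) for each of the 19326 genes tested, coloured by class. The 36 reversed genes lie in the upper left (23) and lower right (13) quadrants, the 296 MEF-confined genes lie along the vertical axis and the 103 mESC-confined genes along the horizontal axis.

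Among fits without 1 library, these counts were lowest without either of the 2 WT mESC libraries, and the cause was not tested. Without WT mESC library 1 they were 192 higher and 56 lower, and without library 2 they were 237 and 75. They were 470 and 377 without Atxn7l3-/- mESC library 1 and 563 and 470 without library 3, 598 and 540 without KO-labelled MEF library 1 and 558 and 480 without library 2. Without KO-labelled MEF library 3 the lower genes numbered 1534, and without WT MEF library 3 they numbered 646. The 8 Y-expressing libraries alone included 1 Atxn7l3-/- mESC library. There all 2090 genes kept the sign of their difference, and 2074 of them a size of at least 1. The genes were chosen with these 8 libraries included, so most signs were bound to be kept. The part of sex in the differences was not tested. Of the 33 genes named for their class, 26 had an edgeR adjusted p between 0.0509 and 0.216 in those libraries, and the exceptions were Atxn7l3, Cyp2s1, Pik3ip1, Cldn15, Rspo1, Myc and Pkhd1l1. Same-numbered WT and mutant MEF libraries tended to vary together. A fit with the MEF number as a block called 1377 higher and 1589 lower, with 2035 of the 2090 genes among them. With the number as a block in both cell types they were 599 and 737, with 1047 of the 2090.

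In 36 genes both effects passed (adjusted p of 0.05 or less and at least 1 on the log2 scale) and pointed in opposite directions. Of these reversed genes, 23 rose in KO-labelled MEFs and fell in Atxn7l3-/- mESCs (0.119% of genes tested) and 13 did the opposite (0.0673%). All 36 are protein-coding and 26 were expressed in both cell types. The promoters of 4 of them, and of Upk3b, a gene that changed in MEFs alone, are shown because they head genes with contrasting behaviour. They are the 250 bases before the RefSeq start (GRCm38.p6), 5′ to 3′ on the gene's strand, with CG dinucleotides in capitals: Met at chr6:17463707-17463956 (plus strand), Cyp2s1 at chr7:25816526-25816775 (minus strand), Pik3ip1 at chr11:3330481-3330730 (plus), H2-Eb1 at chr17:34305617-34305866 (plus) and Upk3b at chr5:136038246-136038495 (plus).
Met: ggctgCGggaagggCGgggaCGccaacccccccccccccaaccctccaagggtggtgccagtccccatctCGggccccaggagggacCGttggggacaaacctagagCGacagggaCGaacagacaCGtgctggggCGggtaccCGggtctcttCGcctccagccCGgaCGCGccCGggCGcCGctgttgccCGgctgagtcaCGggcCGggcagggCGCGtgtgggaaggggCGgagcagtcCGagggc
Cyp2s1: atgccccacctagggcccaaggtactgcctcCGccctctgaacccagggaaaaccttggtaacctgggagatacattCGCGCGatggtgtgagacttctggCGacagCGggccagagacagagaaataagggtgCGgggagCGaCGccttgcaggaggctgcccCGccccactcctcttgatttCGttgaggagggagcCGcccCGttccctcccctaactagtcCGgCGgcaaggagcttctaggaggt
Pik3ip1: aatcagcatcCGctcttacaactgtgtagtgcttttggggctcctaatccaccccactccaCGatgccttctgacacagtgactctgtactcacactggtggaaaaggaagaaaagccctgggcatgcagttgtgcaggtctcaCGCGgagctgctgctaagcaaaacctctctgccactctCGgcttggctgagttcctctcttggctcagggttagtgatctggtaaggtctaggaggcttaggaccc
H2-Eb1: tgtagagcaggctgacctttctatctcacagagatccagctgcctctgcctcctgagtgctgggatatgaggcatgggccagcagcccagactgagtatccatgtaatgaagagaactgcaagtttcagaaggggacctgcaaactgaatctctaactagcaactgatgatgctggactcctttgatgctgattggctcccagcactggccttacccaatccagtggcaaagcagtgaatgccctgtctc
Upk3b: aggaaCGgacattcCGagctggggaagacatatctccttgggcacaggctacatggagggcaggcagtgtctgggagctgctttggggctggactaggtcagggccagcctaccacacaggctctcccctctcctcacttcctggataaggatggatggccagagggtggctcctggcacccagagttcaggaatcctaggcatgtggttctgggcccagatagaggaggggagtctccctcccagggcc

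These windows held 24 CG dinucleotides in Met, 15 in Cyp2s1, 5 in Pik3ip1, 2 in Upk3b and 0 in H2-Eb1. The reversed genes thus included both a CG-rich start and a start with no CG at all. Promoters were found for 17 of the 23 genes reversed upwards in MEFs, with a median of 21 CG, and for 8 of the 13 reversed downwards, with a median of 5.5, against 14 over the 12842 tested genes matched. The AP-1 motif TGACTCA, searched on both strands, was in 2 of the 17 and 0 of the 8, against 3.50% of the tested genes' promoters. The E-box CACGTG was in 1 of each, against 7.92%, and TATAAA in none, against 7.12%. Of the printed promoters, Met alone held TGACTCA or CACGTG, and it held both. A match of letters is a description and not a binding site.

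Among genes that rose in MEFs and fell in mESCs, the difference was widest for Cyp2s1 (chromosome 7, 25802475 to 25816913), which encodes a cytochrome P450. It measured 28.5 and 31.5 CPM in WT mESCs and 7.22, 6.00 and 10.9 CPM in Atxn7l3-/- mESCs. In MEFs it measured 0.347, 0.688 and 0.561 CPM in WT and 174, 204 and 114 CPM in the KO-labelled libraries. WT mESCs were thus well above WT MEFs, and the KO-labelled MEFs were the highest of the 4 groups. The fall was 3.74-fold in mESCs and the rise 311-fold in MEFs, a difference of 10.18 on the log2 scale (SE 0.52, edgeR adjusted p = 1.56e-05). The genes named by class were chosen from those whose WT and mutant libraries do not overlap where the effect was called, as is the case for 36.3% of all tested genes in MEFs and 47.7% in mESCs.

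Met (chromosome 6, 17463800 to 17573980), the receptor tyrosine kinase for hepatocyte growth factor, measured 5.72 and 3.03 CPM in WT mESCs and 0.643, 0.643 and 0.405 CPM in Atxn7l3-/- mESCs. In MEFs it measured 20.5, 19.6 and 30.7 CPM in WT and 187, 352 and 109 CPM in KO-labelled libraries. Every KO-labelled MEF library exceeded every other library, and Atxn7l3-/- mESCs were the lowest group (difference 6.15, SE 0.65, edgeR adjusted p = 0.000961). Nnmt (chromosome 9, 48591877 to 48605153) encodes nicotinamide N-methyltransferase, which consumes the methyl donor S-adenosylmethionine. It measured 4.90 and 6.84 CPM in WT and 0.231, 0.107 and 0.901 CPM in Atxn7l3-/- mESCs. In WT MEFs it measured 3.00, 16.5 and 9.35 CPM, and in KO-labelled MEFs 48.2, 52.1 and 64.6 CPM. The WT groups of the 2 cell types overlapped, whereas the mutant groups lay far apart on either side of them (difference 6.33, SE 1.05, edgeR adjusted p = 0.00786). Akr1c14 (chromosome 13, 4049011 to 4090688), an aldo-keto reductase of steroid metabolism, fell from 2.52 and 1.63 CPM to 0.437, 0.171 and 0.383 CPM in mESCs. In MEFs it rose from 13.8, 6.19 and 4.73 CPM to 53.1, 25.2 and 50.003 CPM (difference 5.02, SE 0.75, edgeR adjusted p = 0.00535). Met and Akr1c14 were above the expression level in MEFs alone, so their mESC effects concern low levels.

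Among genes that fell in MEFs and rose in mESCs, Pnck (chromosome X, 73655994 to 73660117), a calcium/calmodulin-dependent protein kinase, had the widest difference of those named. It measured 7.12 and 7.37 CPM in WT and 40.1, 31.6 and 20.3 CPM in Atxn7l3-/- mESCs. It measured 4.10, 4.75 and 4.15 CPM in WT MEFs and 0.372, 0.154 and 0.479 CPM in KO-labelled MEFs. The WT cells of both kinds were thus at similar levels and the mutant cells diverged (difference -5.77, SE 0.66, edgeR adjusted p = 0.00159). Pnck lies on the X chromosome, and its level was highest in the 2 Atxn7l3-/- mESC libraries without Y-linked expression. The part of sex in its mESC effect was not tested, and in the Y-expressing libraries alone its difference was -5.19 (edgeR adjusted p = 0.0546).

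H2-Eb1 (chromosome 17, 34305877 to 34316199), a chain of the MHC class II antigen-presenting molecule, measured 26.4 and 24.3 CPM in WT and 90.1, 103 and 78.6 CPM in Atxn7l3-/- mESCs. It measured 1.51, 2.16 and 1.83 CPM in WT MEFs and 0.451, 0.307 and 0.180 CPM in KO-labelled MEFs. It was therefore mainly an mESC transcript, which rose 3.57-fold there and fell 5.76-fold from a low level in MEFs (difference -4.36, SE 0.45, edgeR adjusted p = 0.000898). Pik3ip1 (chromosome 11, 3330401 to 3342971), an inhibitor of phosphoinositide 3-kinase, rose from 5.72 and 5.29 CPM to 20.8, 12.5 and 22.2 CPM in mESCs. In MEFs it fell from 70.0, 54.5 and 60.9 CPM to 10.51, 13.4 and 13.7 CPM. The mutant cells of both kinds thus overlapped, although the WT cells differed widely (difference -4.05, SE 0.41, edgeR adjusted p = 0.000826). Thbd (chromosome 2, 148404466 to 148408188), which encodes the thrombin receptor thrombomodulin, rose from 0.458 and 0.803 CPM to 1.70, 2.94 and 2.4997 CPM in mESCs. It fell from 62.3, 113 and 77.8 CPM to 26.8, 18.2 and 14.7 CPM in MEFs (difference -4.00, SE 0.55, edgeR adjusted p = 0.00428).

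**Figure D2:**
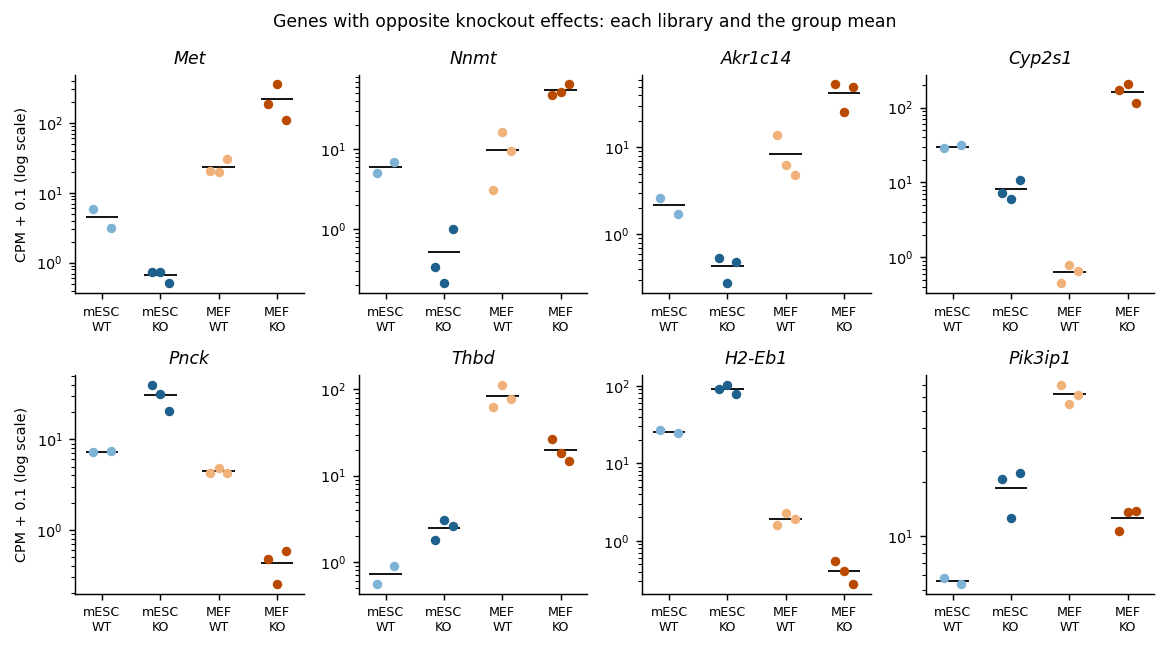
Level of the 8 named reversed genes in each library (points, CPM plus 0.1 on a log scale) with the group mean (line), for WT and Atxn7l3-/- (KO) mESCs and WT and KO-labelled MEFs. In the upper row the KO points lie below WT in mESCs and above WT in MEFs. In the lower row they lie above WT in mESCs and below WT in MEFs.

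Of the other 28 reversed genes, some had effects as large as those named but few counts in a group, such as Arg2, whose effects were 4.17 in MEFs and -4.50 in mESCs on the log2 scale, from means of 0.0426 CPM in WT MEFs and 2.72 CPM in WT mESCs. Others were expressed in both cell types, although Nt5e was low in Atxn7l3-/- mESCs. Hells, a chromatin remodelling factor needed for DNA methylation, averaged 496 and 218 CPM in WT and Atxn7l3-/- mESCs and 34.6 and 80.5 CPM in WT and KO-labelled MEFs. Nt5e, the ecto-nucleotidase CD73, averaged 11.1 and 1.54 CPM in mESCs and 16.9 and 56.1 CPM in MEFs. Spry2, a feedback inhibitor of receptor tyrosine kinase signalling, averaged 69.8 and 23.7 CPM in mESCs and 43.4 and 113 CPM in MEFs. All of these fell in mESCs and rose in MEFs, as did Trib1 and Nab1. In the other direction, Cpt1c, a brain-type carnitine palmitoyltransferase, averaged 53.8 and 127 CPM in mESCs and 117 and 38.8 CPM in MEFs. Pcx, the mitochondrial pyruvate carboxylase, averaged 43.6 and 100.1 CPM in mESCs and 63.8 and 29.6 CPM in MEFs. Dcxr, a xylulose reductase, averaged 30.9 and 94.5 CPM in mESCs and 74.7 and 25.6 CPM in MEFs. These genes, Arg2 included, were picked from the class after their values were seen.

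The difference of all 36 reversed genes kept an adjusted p of 0.05 or less with the replicate block in both cell types, and all 36 had opposite signs in the Y-expressing libraries. Both fits reuse libraries from which the class was defined, so neither is separate evidence. The number of genes classed as reversed varied widely when a library was removed. The counts of genes reversed upwards and downwards in MEFs were 1 and 0 without WT mESC library 1 and without WT mESC library 2 alike, and 1 and 0 without Atxn7l3-/- mESC library 1. They were 3 and 0 without Atxn7l3-/- mESC library 3, 3 and 2 without KO-labelled MEF library 1, and 8 and 2 without WT MEF library 3. They were 15 and 9 without KO-labelled MEF library 2, 40 and 18 without Atxn7l3-/- mESC library 2, 28 and 25 without WT MEF library 2 and 29 and 24 without KO-labelled MEF library 3. With the replicate block they were 1 and 0, and with the block in MEFs alone 39 and 46.

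A MEF-confined gene was expressed in both cell types, changed in MEFs and had an mESC effect below 0.5 on the log2 scale with an adjusted p above 0.05. There were 296 such genes (1.53%), of which 207 rose (1.07%) and 89 fell (0.461%). The 4 named genes that rose include transcripts known from mesothelium, the lining of body cavities. Upk3b (chromosome 5, 136038496 to 136046487), a uroplakin and mesothelial marker, measured 4.24, 18.3 and 4.20 CPM in WT MEFs and 2304, 1796 and 1712 CPM in KO-labelled MEFs. In mESCs it stayed between 0.643 and 2.07 CPM in all 5 libraries (difference 7.87, SE 0.93, edgeR adjusted p = 0.002). KO-labelled MEFs stood apart from the other 3 groups, which all had low levels.

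Cldn15, a tight junction claudin, measured 0.428, 1.09 and 0.854 CPM in WT MEFs and 199, 253 and 115 CPM in KO-labelled MEFs, with 0.350 to 0.721 CPM in mESCs (difference 7.83, SE 0.66, edgeR adjusted p = 0.000291). Rspo1, a secreted enhancer of Wnt signalling, measured 0.938, 2.00 and 0.293 CPM in WT and 92.5, 89.1 and 70.9 CPM in KO-labelled MEFs, with 0.493 to 1.60 CPM in mESCs (difference 6.60, SE 0.94, edgeR adjusted p = 0.00458). Ddc, the decarboxylase that makes dopamine and serotonin, differed from these in that mESCs also expressed it. It measured 33.9 and 44.2 CPM in WT and 50.3, 31.1 and 20.7 CPM in Atxn7l3-/- mESCs, and its genotypes overlapped there. In MEFs it rose from 0.694, 4.47 and 1.73 CPM to 205, 240 and 103 CPM (difference 6.53, SE 0.88, edgeR adjusted p = 0.00401). Tfcp2l1, a transcription factor of naive pluripotency, behaved alike: it measured 879 to 1186 CPM in the 5 mESC libraries, and rose from 1.24, 1.56 and 1.07 CPM to 75.2, 60.4 and 27.2 CPM in MEFs (difference 5.33, SE 0.51, edgeR adjusted p = 0.000597).

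Of the genes that fell in MEFs alone, Acta1, skeletal muscle actin, measured 49.1, 17.7 and 55.5 CPM in WT and 0.664, 0.844 and 3.14 CPM in KO-labelled MEFs. In mESCs it measured 1.93 and 1.79 CPM in WT and 2.36, 3.19 and 2.27 CPM in Atxn7l3-/- cells (difference -5.21, SE 0.95, edgeR adjusted p = 0.0114). The mutant mESC libraries thus lay slightly above WT, with an mESC effect of 0.49 (edgeR adjusted p = 0.704). Cdo1, cysteine dioxygenase, fell from 29.4, 151 and 31.0 CPM to 1.59, 1.18 and 4.43 CPM in MEFs, while mESCs held 29.2 and 28.1 CPM in WT and 19.6, 22.7 and 41.5 CPM in Atxn7l3-/- cells (difference -4.84, SE 1.08, edgeR adjusted p = 0.0217). For Cdo1, 2 of the 3 WT MEF libraries thus lay within the range of the mESCs and the third was higher, and the KO-labelled MEFs were the lowest group. Adcy2, an adenylyl cyclase, fell from 17.4, 31.3 and 8.59 CPM to 0.318, 0.0768 and 0.749 CPM (difference -5.28, SE 1.158, edgeR adjusted p = 0.0209). Cacna1h, a T-type calcium channel, fell from 8.44, 51.1 and 20.6 CPM to 0.451, 0.102 and 1.74 CPM (difference -5.53, SE 1.46, edgeR adjusted p = 0.037). In mESCs Adcy2 measured 0.925 to 2.81 CPM and Cacna1h 0.617 to 2.03 CPM. Their mESC effects thus concern low levels, where a fall would be hard to see. With the replicate block the edgeR adjusted p of the difference was 0.0821 for Cacna1h, 0.0677 for Adcy2 and 0.0602 for Cdo1. Leaving out WT mESC library 1 or 2 gave edgeR adjusted p of 0.152 and 0.157 for Cacna1h, 0.109 and 0.108 for Adcy2, 0.0733 and 0.0749 for Acta1, and 0.109 and 0.112 for Cdo1. For Cacna1h the edgeR adjusted p was also above 0.05 without WT MEF library 2 (0.0588) or 3 (0.0559), KO-labelled MEF library 1 (0.0704), or Atxn7l3-/- mESC library 1 (0.0611) or 3 (0.0764).

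An mESC-confined gene met the mirror conditions, and 103 genes did (0.533%), of which 68 fell (0.352%) and 35 rose (0.181%). Among them were 2 transcription factors that respond to growth factor signalling. Myc (chromosome 15, 61985391 to 61990374), the proto-oncogene and target of LIF signalling in mESCs, measured 7.69 and 7.41 CPM in WT and 0.154, 0.557 and 0.180 CPM in Atxn7l3-/- mESCs. In MEFs it measured 21.8, 34.7 and 61.3 CPM in WT and 34.8, 55.01 and 52.5 CPM in KO-labelled libraries. The 24.9-fold fall in mESCs separated the genotypes, whereas the MEF genotypes overlapped (difference 4.91, SE 0.72, edgeR adjusted p = 0.00494). Egr1 (chromosome 18, 34859823 to 34864984), an immediate early gene, measured 13.5 and 21.5 CPM in WT and 0.823, 1.80 and 0.225 CPM in Atxn7l3-/- mESCs. It measured 234, 448 and 220 CPM in WT and 191, 546 and 255 CPM in KO-labelled MEFs (difference 4.33, SE 0.89, edgeR adjusted p = 0.0174). The Egr1 fall also took place at levels far below those of MEFs.

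Tle4, a Groucho family corepressor, was by contrast higher in mESCs than in MEFs. It fell from 257 and 176 CPM to 29.1, 50.7 and 25.9 CPM in mESCs, and measured 29.9, 10.7 and 20.3 CPM in WT and 32.4, 29.5 and 19.7 CPM in KO-labelled MEFs (difference 3.04, SE 0.58, edgeR adjusted p = 0.0129). Atxn7l3-/- mESCs thus reached the MEF level. Slc40a1, the iron exporter ferroportin, fell from 38.8 and 24.03 CPM to 4.24, 2.79 and 1.64 CPM in mESCs, and its MEF genotypes overlapped between 7.78 and 41.4 CPM (difference 3.73, SE 0.99, edgeR adjusted p = 0.0384). Without WT mESC library 1 or 2 the edgeR adjusted p was 0.0559 and 0.0796 for Egr1 and 0.14 and 0.095 for Slc40a1, and for Tle4 it was 0.0705 without library 1. For Slc40a1 it was above 0.05 without any 1 library other than WT MEF library 2 or KO-labelled MEF library 3, with edgeR values of 0.0598 and 0.083 without KO-labelled MEF library 1 or 2, 0.0581 and 0.0692 without WT MEF library 1 or 3, and 0.0625, 0.0619 and 0.0823 without Atxn7l3-/- mESC library 1, 2 or 3.

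Of the genes that rose in mESCs alone, Pold4, the small subunit of DNA polymerase delta, rose from 4.68 and 4.28 CPM to 23.4, 14.6 and 23.9 CPM and measured 20.7 to 40.6 CPM in the 6 MEF libraries (difference -2.49, SE 0.44, edgeR adjusted p = 0.01). Ube2e2, a ubiquitin-conjugating enzyme, rose from 2.16 and 1.98 CPM to 9.30, 9.67 and 5.72 CPM and measured 22.7 to 32.4 CPM in MEFs (difference -2.27, SE 0.40, edgeR adjusted p = 0.00988). Txndc16, a thioredoxin domain protein, rose from 7.96 and 8.24 CPM to 24.1, 26.99 and 24.01 CPM, and its MEF genotypes overlapped between 29.6 and 66.2 CPM (difference -2.12, SE 0.39, edgeR adjusted p = 0.0115). All 3 rose from a level below that of WT MEFs towards it. Tnfsf13os, an antisense transcript of the Tnfsf13 locus, rose from 0.382 and 0.494 CPM to 6.73, 2.31 and 3.60 CPM and stayed at or below 0.531 CPM in MEFs (difference -3.32, SE 0.91, edgeR adjusted p = 0.0416). The use of strand in counting is not given in the sources used here, so its reads cannot be told apart from those of the partner gene. Its edgeR adjusted p was 0.106 with the replicate block. Without WT mESC library 1 or 2 the edgeR adjusted p was 0.167 and 0.144 for Tnfsf13os, 0.0597 and 0.0663 for Pold4, 0.0594 and 0.0663 for Ube2e2, and 0.0705 and 0.0676 for Txndc16. For Tnfsf13os it was also above 0.05 by edgeR without KO-labelled MEF library 1 (0.0828) or 2 (0.0848), WT MEF library 1 (0.0519) or 2 (0.0621), or Atxn7l3-/- mESC library 1 (0.089) or 3 (0.0653).

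**Figure D3:**
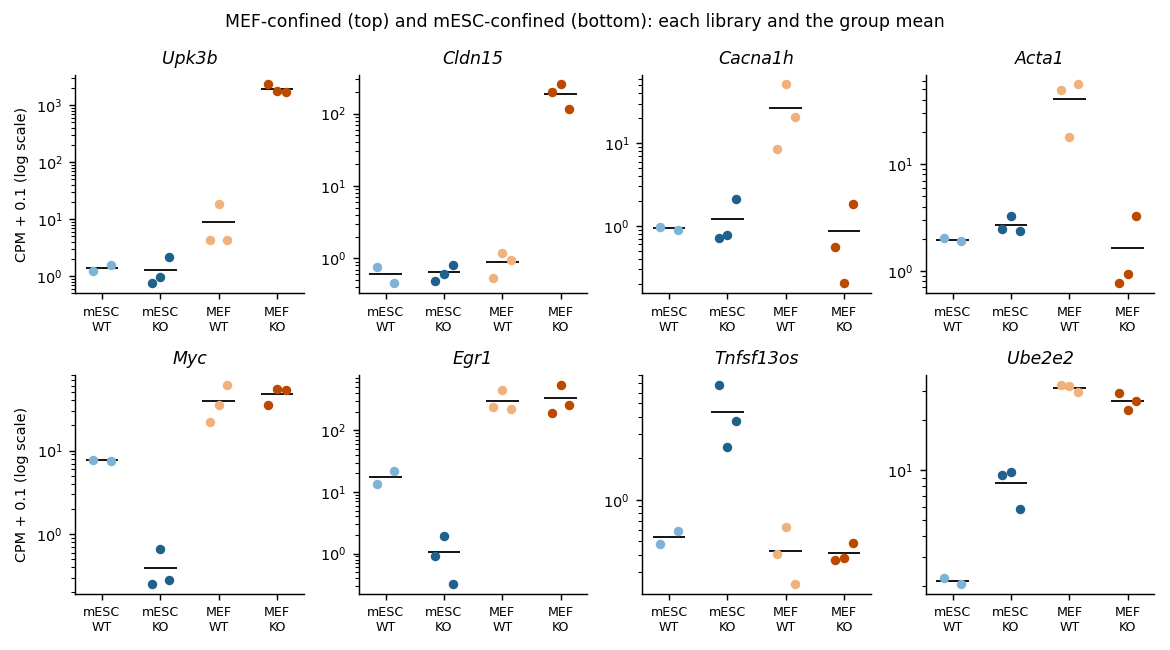
Level of 4 MEF-confined genes (upper row) and 4 mESC-confined genes (lower row) in each library (points, CPM plus 0.1 on a log scale) with the group mean (line). In the upper row the KO-labelled MEFs stand apart from WT MEFs, Upk3b and Cldn15 above and Cacna1h and Acta1 below, while mESC genotypes overlap or lie close. In the lower row the mESC genotypes separate, Myc and Egr1 falling and Tnfsf13os and Ube2e2 rising, while the MEF genotypes overlap or lie close.

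The confined counts followed the same libraries. Without WT mESC library 1 or 2 the MEF-confined genes numbered 37 and 43 and the mESC-confined genes 1 and 2. Without Atxn7l3-/- mESC library 1 or 3 they were 112 and 147 for MEFs and 1 and 3 for mESCs, and without library 2 the mESC-confined genes numbered 254. Without KO-labelled MEF library 1, 2 or 3 the MEF-confined genes numbered 159, 143 and 643, and without library 1 or 2 the mESC-confined genes numbered 12 and 62. Without WT MEF library 3 the mESC-confined genes numbered 26. With the block the counts were 233 and 2, with the block in MEFs alone 523 and 149, and in the Y-expressing libraries 4 and 2.

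Of the 2090 called genes, 209 were expressed in MEFs alone and 184 in mESCs alone, so that the effect could be seen well in 1 cell type only. Pkhd1l1, a fibrocystin-like membrane protein, measured 0.632, 1.31 and 1.56 CPM in WT and 886, 1209 and 497 CPM in KO-labelled MEFs. Muc16, the mucin CA125 of mesothelium, measured 0.265, 0.906 and 0.464 CPM in WT and 275, 136 and 253 CPM in KO-labelled MEFs. Both had 0 counts in all 3 Atxn7l3-/- mESC libraries, which allows up to 0.0856 CPM, and at most 0.185 CPM in WT mESCs. Tnmd, tenomodulin of tendons, fell from 48.4, 351 and 141 CPM to 1.46, 0.384 and 0.928 CPM in MEFs and stayed at or below 0.171 CPM in mESCs. Col10a1, a collagen of hypertrophic cartilage, fell from 80.4, 460 and 60.9 CPM to 1.41, 2.48 and 10.1 CPM in MEFs (edgeR adjusted p of the difference = 0.0159). Without WT mESC library 1 or 2 it had an edgeR adjusted p of 0.0977 and 0.0739, and Tnmd one of 0.0558 without library 1.

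On the mESC side, Mst1, the macrophage-stimulating protein, rose from 19.3 and 11.1 CPM to 55.3, 69.1 and 58.0 CPM (edgeR adjusted p of the difference = 0.0114). The zinc finger genes Zfp985 and Zfp459 fell, from 60.5 and 99.5 CPM to 7.99, 14.9 and 10.9 CPM and from 41.0 and 49.5 CPM to 9.82, 13.1 and 12.9 CPM. Both were at or below 0.239 CPM in every MEF library, and their differences had edgeR adjusted p of 0.0178 and 0.0183. Vmn2r1, a vomeronasal receptor, rose from 0.420 and 0.803 CPM to 4.96, 3.62 and 4.32 CPM (edgeR adjusted p of the difference = 0.0391, and 0.101 with the replicate block). Zfp985, Zfp459 and Vmn2r1 belong to multigene families whose reads the counting may have split. Without WT mESC library 1 or 2 the edgeR adjusted p was 0.0501 and 0.0849 for Zfp985, 0.0702 and 0.0859 for Zfp459, and 0.172 and 0.0936 for Vmn2r1, and for Mst1 it was 0.0646 without library 2. Zfp985 had an edgeR adjusted p of 0.0692 without KO-labelled MEF library 2. Vmn2r1 had edgeR values of 0.0756 and 0.0773 without KO-labelled MEF library 1 or 2, 0.0552 and 0.062 without WT MEF library 1 or 3, and 0.0809 and 0.066 without Atxn7l3-/- mESC library 1 or 3.

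Gene lists were described by how many of their tested members were called, beside the 10.8% of all genes, and by their median difference, beside -0.09 over all genes. Medians include fitted values of genes with a group at 0, so the median with every group mean raised to the level of 3 counts is given as well. The list with the largest share was that of mesothelial genes: 8 of 12 were called and all 8 were higher in MEFs, with a median of 8.04 (7.58 at the floor of 3 counts). The MEF effect was called upwards for 11 of the 12, and the mESC effect for none. Lrrn4, a mesothelial membrane protein, measured 1.49, 5.16 and 3.22 CPM in WT and 2141, 2354 and 1402 CPM in KO-labelled MEFs, against 5.86 and 8.46 CPM in WT and 1.85, 2.92 and 2.30 CPM in Atxn7l3-/- mESCs (difference 10.83, SE 0.68, edgeR adjusted p = 3.11e-05). Wt1, the Wilms tumour transcription factor, measured 0.959, 3.00 and 1.12 CPM in WT and 181, 233 and 114 CPM in KO-labelled MEFs. Of the 4 mesothelial markers, none was at 0 in any group. They summed to 10.1 to 33.0 CPM in WT MEFs, 3993 to 5822 CPM in KO-labelled MEFs, 142 and 56.6 CPM in WT mESCs and 73.9 to 238 CPM in Atxn7l3-/- mESCs. The mESC sums were mostly Msln, at 134 and 46.0 CPM in WT and 188, 234 and 69.1 CPM in Atxn7l3-/- mESCs. No other of these markers exceeded 8.46 CPM in mESCs. In bulk cultures a larger share of mesothelial cells and more of these RNAs per cell cannot be told apart.

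**Figure D4:**
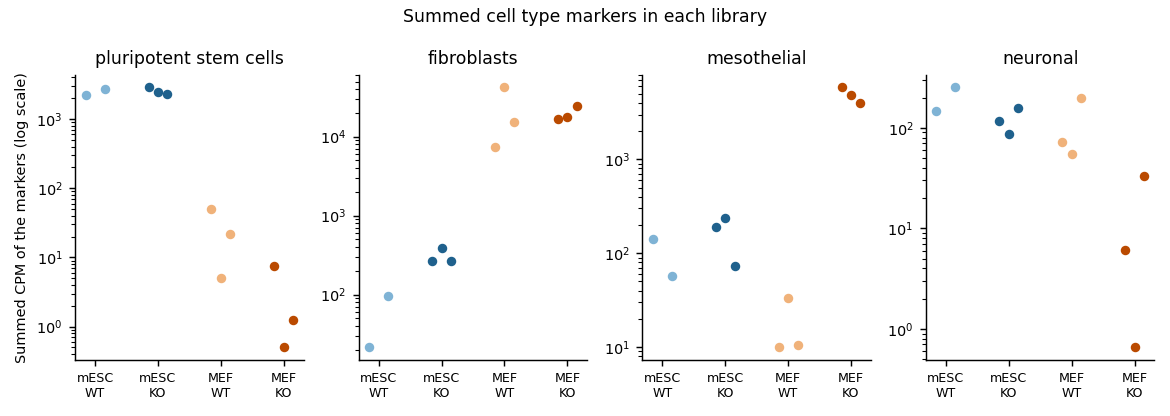
Summed CPM of the markers of pluripotent stem cells, fibroblasts, mesothelial cells and neurons in each library, on log scales. The mesothelial sum separates KO-labelled MEFs (3993 to 5822 CPM) from WT MEFs (10.1 to 33.0 CPM), the fibroblast sum separates Atxn7l3-/- mESCs (265 to 389 CPM) from WT mESCs (21.8 and 96.3 CPM), and the neuronal sum is lower in KO-labelled than in WT MEFs.

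Several developmental lists moved the other way. Of 17 neuronal and neural crest genes, 9 were called and all were lower in MEFs, with a median difference of -3.56 (-3.29 at the floor). Sox10, a neural crest transcription factor, measured 7.36, 4.97 and 26.9 CPM in WT MEFs and 0.0531, 0 and 0.0898 CPM in KO-labelled MEFs, with at most 0.608 CPM in mESCs. Stmn2, a neuronal tubulin-binding protein, fell from 43.2, 17.9 and 63.9 CPM to 0.584, 0.102 and 0.419 CPM in MEFs and measured 78.3 to 209 CPM in mESCs, where the genotypes overlapped. The 4 neuronal markers summed to 54.3 to 196 CPM in WT MEFs, 0.665 to 33.2 CPM in KO-labelled MEFs and 87.1 to 252 CPM in mESCs, with 1 marker, Snap25, at 0 in all libraries of both mutant groups. Cartilage genes had 5 of 13 lower and none higher, with a median of -3.67 (-4.24 at the floor). Col2a1, the main cartilage collagen, fell from 172, 621 and 510 CPM to 2.65, 0.640 and 2.37 CPM in MEFs, whereas in mESCs it measured 4.47 and 7.13 CPM in WT and 16.6, 10.9 and 16.3 CPM in Atxn7l3-/- cells (difference -9.18, SE 0.95, edgeR adjusted p = 0.000898). Of 24 limb, heart and body wall transcription factors, 4 were higher, namely Gata4, Gata5, Gata6 and Tbx18, and 5 were lower, namely Tbx2, Tbx4, Tbx5, Pitx1 and Alx4. Gata6 rose from 4.49, 12.2 and 12.0 CPM to 286, 382 and 172 CPM in MEFs and measured 0.631 to 3.03 CPM in mESCs (difference 4.98, SE 0.87, edgeR adjusted p = 0.00971).

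HOX genes, which set position along the body axis, had 9 of 38 called, all lower in MEFs, with a median difference of -3.01 (-2.53 at the floor). Hoxa9 fell from 4.02, 20.5 and 6.32 CPM to 0.265, 0.0256 and 0.689 CPM in MEFs, and measured 0.153 and 0.227 CPM in WT and 1.36, 1.41 and 0.698 CPM in Atxn7l3-/- mESCs (difference -7.57, SE 1.505, edgeR adjusted p = 0.0151). Collagens had 8 of 27 called, all lower, with a median of -3.31 (-3.30 at the floor), and smooth muscle and actin genes 1 higher and 5 lower of 20. In these lists, as in the fibroblast list (2 of 20 lower, median -1.97, or -1.98 at the floor), part of the difference came from positive mESC estimates: their median mESC effects were 1.21, 0.76, 0.11 and 2.01 on the log2 scale, and no mESC effect was called upwards in any of the 4. Only some fibroblast markers moved with these mESC estimates. Col1a1, Col1a2, Col3a1 and Prrx1 had mESC effects of 2.48, 2.65, 3.08 and 2.99. Those of Pdgfrb, Thy1 and Twist2 were 0.09, 0.33 and -0.28, and none of these effects passed. Col1a1 measured 9.66 and 47.6 CPM in WT and 141, 190 and 149 CPM in Atxn7l3-/- mESCs (edgeR adjusted p = 0.121 for the mESC effect), while Thy1 measured 3.72 to 7.29 CPM with overlap, and Twist2 was at 0 in 3 of the 5 mESC libraries and at most 0.0225 CPM in the others. The part of fibroblast RNA in these differences was not tested.

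**Figure D5:**
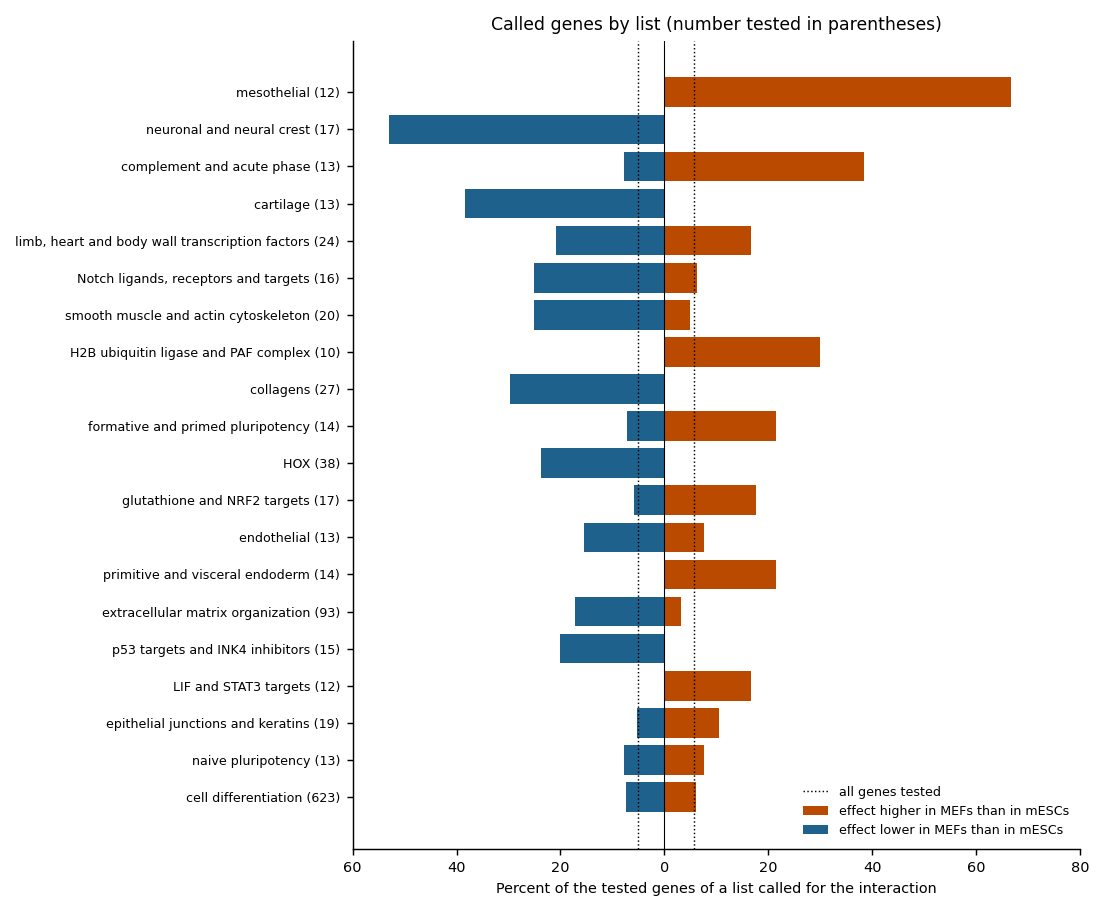
Percent of the tested genes of each list that were called higher (right) or lower (left) in MEFs than in mESCs, for the 20 lists with the largest share called among those with at least 8 genes tested. Dotted lines mark all genes tested (5.77% and 5.04%). Mesothelial genes extend furthest to the right (8 of 12) and neuronal and neural crest genes furthest to the left (9 of 17).

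In 2 smaller lists most of the called members, Ephx1 apart, had estimates of opposite sign in the 2 cell types, without a reversal by the definition above. The cell cycle inhibitors Cdkn2a and Cdkn2b and the pro-apoptotic Bbc3 were the 3 of 15 p53 and INK4 genes called, all lower in MEFs. Cdkn2a measured 10.0 and 13.7 CPM in WT and 29.0, 19.5 and 28.4 CPM in Atxn7l3-/- mESCs, and 75.6, 75.4 and 175 CPM in WT and 37.7, 18.1 and 42.6 CPM in KO-labelled MEFs (difference -2.84, SE 0.62, edgeR adjusted p = 0.02). Cdkn2b measured 3.47 and 2.90 CPM in WT and 7.53, 7.29 and 8.65 CPM in Atxn7l3-/- mESCs, and 107, 81.7 and 191 CPM in WT and 73.5, 42.7 and 52.8 CPM in KO-labelled MEFs (difference -2.46, SE 0.48, edgeR adjusted p = 0.0145). The mutant libraries of both genes were above WT in mESCs and below WT in MEFs, without overlap. The MEF effects of all 3 genes passed, whereas their mESC effects did not (edgeR adjusted p = 0.189 for Cdkn2a, 0.0875 for Cdkn2b and 0.206 for Bbc3). Of 17 glutathione and NRF2 target genes, 3 were higher (Hmox1, Gclm, Srxn1) and 1 was lower (Ephx1). Hmox1, haem oxygenase 1, measured 277 and 149 CPM in WT and 82.0, 118 and 79.1 CPM in Atxn7l3-/- mESCs, and 206, 195 and 229 CPM in WT and 637, 817 and 395 CPM in KO-labelled MEFs (difference 2.75, SE 0.46, edgeR adjusted p = 0.00806). Its MEF effect passed and its mESC effect did not (edgeR adjusted p = 0.0871).

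Notch pathway genes had 1 of 16 higher (the target Hes1) and 4 lower (the ligands Dll1 and Jag1 and the receptors Notch1 and Notch3). Dll1 rose from 1.14 and 1.01 CPM to 61.5, 8.79 and 63.1 CPM in mESCs and measured 0.120 to 0.813 CPM in MEFs (difference -6.81, SE 1.13, edgeR adjusted p = 0.0076). Hes1 measured 32.2 and 20.7 CPM in WT and 3.32, 5.42 and 2.43 CPM in Atxn7l3-/- mESCs, so a ligand and a target moved in opposite directions there. Its MEF levels were 81.9, 85.7 and 129 CPM in WT and 50.7, 41.1 and 77.6 CPM in KO-labelled libraries, and the edgeR adjusted p of the difference, 0.0344, was 0.0598 with the replicate block.

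The genes that write H2Bub1 were also examined. Of 10 genes of the H2B ubiquitin ligase and the PAF complex, Cdc73, Wac and Paf1 were called, all higher in MEFs, and neither cell type's own effect was called for any of the 10. Paf1, a core PAF subunit, measured 81.5 and 77.9 CPM in WT and 37.5, 44.6 and 43.2 CPM in Atxn7l3-/- mESCs, and 73.9, 79.2 and 96.1 CPM in WT and 117, 124 and 93.0 CPM in KO-labelled MEFs (difference 1.35, SE 0.27, edgeR adjusted p = 0.0162). The mESC effect of Paf1, -0.93, had an edgeR adjusted p of 0.044 and missed only the log2 cut-off of 1. With the replicate block the edgeR adjusted p was 0.0608 for Paf1, 0.0697 for Wac and 0.078 for Cdc73. With the GC correction the difference of Cdc73 was 0.57 (edgeR adjusted p = 0.146). Those of Wac and Paf1 were then 1.03 and 1.53 (edgeR adjusted p = 0.0314 and 0.0131). The ligase genes Rnf20 and Rnf40 had differences of 0.39 and 0.33 (edgeR adjusted p = 0.351 and 0.444).

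The remaining lists are given by their counts. Complement and acute phase genes had 6 of 13 called, 5 higher and 1 lower, while the median difference of the list was -0.79 (-1.75 at the floor), opposite in sign to most of its calls. Of 13 naive pluripotency genes, Tfcp2l1 was higher and Esrrb lower, of 14 formative genes 3 were higher and 1 was lower, and of 12 LIF and STAT3 targets Myc and Bcl3 were higher. Of 14 endoderm genes, 3 were higher. The 8 genes of the 2-cell state, a rare mESC state resembling the early embryo, had a median difference of 7.85 (4.35 at the floor) but no call. None reached the expression level. That level is a median over 2 WT and 3 Atxn7l3-/- mESC libraries, so a gene lost in the mutant falls below it whatever its WT level. They measured 0.762 to 5.34 CPM in WT mESCs and at most 0.129 CPM in Atxn7l3-/- mESCs (edgeR adjusted p of the mESC effect between 0.0301 and 0.0414), with at most 0.15 CPM in MEFs. The difference had an edgeR adjusted p of 0.05 or less for Usp17la (0.0124) and Usp17lc (0.0429), but not for Zscan4a (0.0802) or Zscan4d (0.0796). The Zscan4 and Usp17l genes belong to multigene families, whose reads the counting may have split. Among the other lists, 1 or 2 genes were called among 13 primitive streak, 26 cadherin and integrin, 9 macrophage, 21 interferon, 22 TGF-beta and 23 imprinted genes. There were 3 calls each among 19 epithelial, 13 endothelial and 25 Wnt genes. Of the biological process terms in the deposited tables, regulation of transcription had 182 of 2016 genes higher and 88 lower, extracellular matrix organization 3 of 93 higher and 16 lower, and metabolic process 13 of 402 higher and 34 lower. The shares called in these terms were 13.4%, 20.4% and 11.7%. Cell adhesion, cell differentiation, development, immune and inflammatory terms had between 11.2% and 13.5% called.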

How the data were processed

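Raw read counts per gene, as deposited by the authors, were used for all 11 libraries. Per the labels and methods, the authors prepared TruSeq Stranded mRNA libraries from poly(A) RNA and mapped reads to mm10. Their processing notes name bcl2fastq 2.17.1.14, cutadapt 1.10, STAR 2.5.3a, HTSeq 0.6.1p1 and DESeq2 1.16.1. Their annotation of genes and whether counting used strand are not given in the sources used here. The study excluded 1 further WT mESC dataset, which was not analysed here. The signal deposited by the authors, raw counts divided by a size factor and by the median transcript length in kb, served only for the expression level. The deposited log2 fold changes, p-values and adjusted p-values of the authors' own tests were not used.

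For mESCs 31518 genes are listed, and 29450 for MEFs. Genes listed in 1 table only, 5120 and 3052, were not analysed, which leaves out Pou5f1 and Ptprc among the markers. The floor of 3 counts equals 0.0605 to 0.0869 CPM per library and covers counting error only. All 4 groups were fitted together in edgeR 4.0.16 (R 4.3.3) with TMM, filterByExpr and the quasi-likelihood test of the interaction and of each effect, without covariates. In simulated counts for this interaction over 18959 genes, 63 of 100 genes with a log2 difference of 3 and 1 of 100 with 1 were called, with 1 false call. The changed genes were drawn from those above a minimum mean level, and the change was placed in KO-labelled MEFs alone. These shares therefore do not extend to genes at lower levels or to changes in mESCs.

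Members and gene lists were chosen with earlier results of these data known. Besides Atxn7l3, the text names 4 genes per class and direction (2 for genes expressed in 1 cell type). Reversed genes were ranked by the smaller of their effects and the others by the size of the difference. Each had no overlap of WT and mutant libraries where called and a mean above 10 counts in both genotypes there. Models named Gm, Rik or by clone were left out. Up to 3 members per list and those needed to account for it are named as well.

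Each library stems from its own embryo or blastocyst line. Deviations of same-numbered WT and mutant libraries from their group means correlated at 0.411, 0.146 and 0.189 in MEFs. Other MEF pairs gave -0.239 to 0.0496, so the MEF numbers may mark pairs. In mESCs same-numbered deviations correlated at -0.000802 and -0.159, so no pairing was seen. With 2 WT mESC libraries the deviations mirror each other, which limits that reading. The possible pairing comes from few libraries and not from a stated litter. Alternatives were DESeq2 1.42.0, RLE size factors, other filters on low counts and expression, an outer join, a GC correction with GENCODE transcripts, the replicate block, omission of X and Y genes and of each library and, added after seeing the data, the block in MEFs alone and Y-expressing libraries alone. Promoters are RefSeq sequences of GRCm38.p6.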

Additional observations from a re-analysis of the deposited data

Results flagged for a closer look

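All 33 genes listed here passed the interaction test between mESCs and MEFs (edgeR, adjusted p of 0.05 or less). Apart from Atxn7l3, they were drawn from the genes that this test had called, so their passing was fixed by the choice. The differences on the log2 scale, MEF effect minus mESC effect, were 5.97 for Atxn7l3 itself. For the genes reversed upwards in MEFs they were 6.15 for Met, 6.33 for Nnmt, 5.02 for Akr1c14 and 10.18 for Cyp2s1. For those reversed downwards they were -5.77 for Pnck, -4.00 for Thbd, -4.36 for H2-Eb1 and -4.05 for Pik3ip1.

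For MEF-confined genes the differences were 7.87 for Upk3b, 7.83 for Cldn15, 6.60 for Rspo1 and 6.53 for Ddc, and -5.53 for Cacna1h, -5.28 for Adcy2, -5.21 for Acta1 and -4.84 for Cdo1. For mESC-confined genes they were -3.32 for Tnfsf13os, -2.49 for Pold4, -2.27 for Ube2e2 and -2.12 for Txndc16, and 4.91 for Myc, 4.33 for Egr1, 3.73 for Slc40a1 and 3.04 for Tle4.

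For genes expressed in MEFs alone the fitted values were 15.02 for Pkhd1l1, 13.31 for Muc16, -9.77 for Tnmd and -8.10 for Col10a1. Those of Pkhd1l1, Muc16 and Tnmd depend on the prior count of the fit, since an mESC group or library held 0 reads, and are no bound. For genes expressed in mESCs alone they were -3.57 for Mst1, -2.54 for Vmn2r1, 3.52 for Zfp985 and 3.40 for Zfp459.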

How the results depend on the processing

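Values are given in the order genes higher in MEFs, lower in MEFs, reversed upwards and reversed downwards in MEFs, MEF-confined and mESC-confined, which were 1116, 974, 23, 13, 296 and 103 in the analysis reported. DESeq2 called 1726, 1986, 86, 133, 573 and 338. The replicate block in both cell types gave 599, 737, 1, 0, 233 and 2, and the GC correction with replicate block 509, 564, 1, 1, 188 and 5. The block in MEFs alone, where the numbers may mark pairs, gave 1377, 1589, 39, 46, 523 and 149. The Y-expressing libraries alone gave 43, 19, 0, 0, 4 and 2, from fewer samples. The GC correction gave 194 MEF-confined and 170 mESC-confined genes. At least 10 counts in every library gave 31 genes reversed downwards and 174 mESC-confined genes, and no filter on low counts gave 7 and 65. A limit of 0.3 on the other effect gave 178 MEF-confined and 64 mESC-confined genes, and a limit of 1 gave 578 MEF-confined genes. Leaving out 1 library gave 192 to 1443 genes higher in MEFs, 56 to 1534 lower, 1 to 40 and 0 to 25 reversed, 37 to 643 MEF-confined and 1 to 254 mESC-confined, the lowest values without a WT mESC or Atxn7l3-/- mESC library 1. Apart from the smaller groups of the fits with fewer libraries, the cause was not tested. The outer join, RLE size factors and omission of X and Y genes moved none of the 6 counts by over 1.5 times. RLE size factors shifted the median difference over all genes from -0.09 to -0.12. The share of calls higher in MEFs was 53.4%, against 69.4% in Y-expressing libraries and 77.4% and 76.0% without WT mESC library 1 or 2. Of 708 pairs of a named gene and an alternative, 608 kept their side of the threshold, 100 lost it and none changed direction. With the GC correction Cacna1h (edgeR adjusted p = 0.052), Tnfsf13os (0.0521) and Slc40a1 (0.0713) were not called. With the replicate block the named genes not called were Cacna1h, Adcy2, Cdo1, Tnfsf13os and Vmn2r1. The totals limit precision for genes near 3 counts, and 4081 of the 19326 genes tested had at least 1 group mean below that level.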
